A study of Homo sapiens with 2 samples.

Results

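Replication-dependent histone genes encode the core histones and linker histones that package newly made DNA, and they are known for mRNAs that carry no poly(A) tail. Such an mRNA ends a few bases after a conserved stem-loop, which is bound by the stem-loop binding protein SLBP and cut with the help of the U7 small nuclear ribonucleoprotein. NUDT21 is the subunit of cleavage factor I that recognises UGUA upstream of polyadenylation sites, so these genes offer a contrast for a polyadenylation factor. The members were all peaks of the NUDT21 eCLIP list whose midpoint lay in the body, or within 500 nt downstream, of a GENCODE 44 protein-coding gene named H1-1 to H1-6, or H2AC, H2BC, H3C or H4C with a number. The annotation held 69 such genes, and 1 of the 20499 peaks met the rule, or 0.00488% (95% interval 0.000124 to 0.0272, by the exact Clopper-Pearson method). That peak lay in H2BC6 and outside the compact gene that yields the stem-loop mRNA. The other 68 genes held none.

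Sequencing covered 2 samples, 1 made with a NUDT21 antibody and 1 input, both from J-Gamma1, a Jurkat-derived human T-ALL cell line that is known to lack PLCG1. Both were crosslinked on ice with UV-C light (254 nm, 400 mJ each time) and treated with RNase I (40 U). Peaks of the antibody library were analysed here, and no file of the input was used. With 1 library there was no replicate and no test between conditions, all intervals cover counting error only, and the read depth was unknown. The list measured no RNA level, so a gene with little RNA and a gene with little NUDT21 contact cannot be told apart. Of 10 T-cell marker genes 3 held a peak, CD3E, CD247 and ZAP70, a share near the 34.1% of all protein-coding genes. The others (CD3D, CD3G, CD2, CD5, CD7, LCK and LAT) held none. Among 5 B-cell markers only CD79B held a peak, and 5 myeloid markers held none. The peaks of ZAP70 and CD79B both had the lowest Score of the list.

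The stem-loop sequences below show what sets the 3' ends of these mRNAs apart. They are hg38 sequence on the gene strand, with the stem-loop in capitals, and give the most common form in each family together with the end of H1-10, a linker histone gene with a polyadenylated mRNA, whose AATAAA signal is in capitals.
H1-4 (chr6:26157090-26157115, plus): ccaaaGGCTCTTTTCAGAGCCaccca
H2AC8 (chr6:26217412-26217437, plus): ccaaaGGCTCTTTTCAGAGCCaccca
H2BC6 (chr6:26184205-26184230, plus): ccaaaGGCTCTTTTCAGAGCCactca
H3C1 (chr6:26020927-26020952, plus): gcaaaGGCTCTTTTCAGAGCCaccac
H4C3 (chr6:26104312-26104337, plus): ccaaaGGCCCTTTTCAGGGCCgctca
H1-10 (chr3:129314771-129314800, minus): ttgggcacAATAAAgcgtttaaacctttca

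The annotated ends matched the label of the group. The letters GG, any 3 bases, TTNTNA, any 3 bases and CC, where N is any base, were searched on the transcript strand in the last 150 nt of each Ensembl canonical transcript, the representative transcript of a gene. They were found in 68 of the 69 histone genes (98.6%, exact 95% interval 92.2 to 99.96), against 52 of 19964 other protein-coding genes (0.260%). These 52 included H3-4 and H3-7, H3 genes whose symbols fall outside the rule. Among the 68, 39 genes shared the form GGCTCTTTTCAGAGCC. The H4 genes had a stem of other bases, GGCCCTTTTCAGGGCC in 10 of 15 and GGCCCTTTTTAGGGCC in 4. From the last base of the stem-loop to the annotated transcript end there was a median of 5 nt (0 to 18). The exception was H2BC21, an H2B gene on chromosome 1 whose canonical transcript of 2224 nt ran 1729 nt past its stem-loop and had AATAAA in its last 50 nt.

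Signals for polyadenylation were scarce at these ends. AATAAA stood in the last 50 nt of 3 histone transcripts (4.35%, 0.906 to 12.2), those of H2BC21, H2BC9 and H4C11, against 63.7% (63.0 to 64.4) of other protein-coding transcripts. UGUA stood in the last 100 nt of 13 of 69 (18.8%, 10.4 to 30.1), against 51.9% (51.2 to 52.6). Short genes of 1 exon were nearer to the histone genes for UGUA than for AATAAA. Of other 1-exon transcripts of at most 1000 nt 22.3% (18.3 to 26.8) held UGUA in the last 100 nt, and of those with an annotated UTR 30.6% did, while 48.6% of the latter held AATAAA in the last 50 nt. Over whole transcripts the density of UGUA was 2.19 per kb in histone genes and 3.69 per kb in other genes. Other short 1-exon genes held 3.50 per kb, and those of them with a UTR 2.13 per kb. The families differed among themselves: H2B transcripts held 3.64 UGUA per kb and each of the 18 had at least 1, whereas the 13 H3 transcripts held 2 in all, 0.308 per kb. H4 had UGUA in the last 100 nt of 7 of 15 transcripts and H1 in 0 of 6. These are properties of the reference sequence and were not measured by the eCLIP experiment. In the plot of transcript ends, the families lie at the far side from all other genes for the stem-loop and for AAUAAA.

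**Figure D1:**
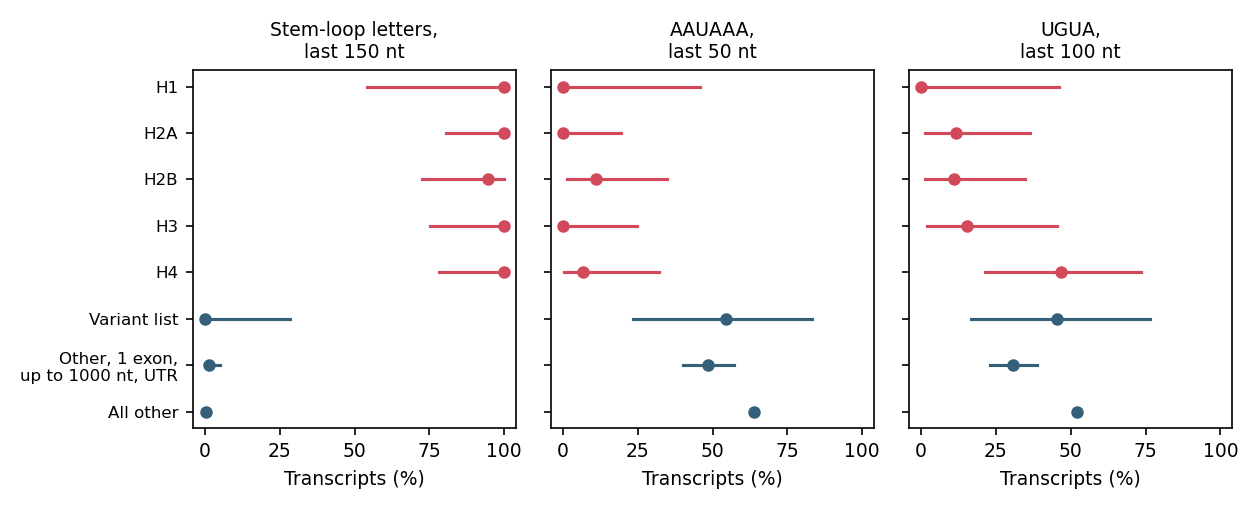
Share of canonical transcripts (%, x axes) that hold the stem-loop letters, AAUAAA or UGUA near their 3' end, for the 5 histone families (red) and other gene groups (blue). Points are shares and lines exact 95% intervals; the stem-loop was found in 68 of 69 histone transcripts and 0.260% of all other genes, and AAUAAA in 4.35% against 63.7%.

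The only peak of the group was at chr6:26178672-26178994 (hg38). It was 323 nt long, with a fold enrichment over the local background of 1.18, a p-value of 0.0423 and a false discovery rate (FDR) of 1, as given by the authors. Its Score was 0.23, the smallest value in the list. The Score of every peak was a whole multiple of about this value, called a step here, up to 45 steps. In all, 7216 peaks (35.2%) were at 1 step like this one, and 34.3% of peaks had a lower fold enrichment. For all peaks the median was 3 steps and a fold enrichment of 1.61, so this peak belonged to the lowest class of the list. It was not among the 38.0% of peaks with a fold enrichment of at least 2, nor among the 42.3% at 5 or more steps.

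H2BC6 encodes an H2B protein and has a compact canonical transcript of 470 nt (chr6:26183761-26184230, plus strand, 1 exon), within a gene body of 12597 nt (chr6:26172059-26184655). The longer body is due to 1 annotated spliced transcript of 4 exons that starts far upstream and reads through the compact gene. The peak overlapped 0 of these exons and lay in an intron, its end 4767 nt upstream of the compact transcript. The map of H2BC6 shows this position. For 52 of the 69 genes the body equals the canonical transcript, and for 17 it is longer, so that 188 of the 224 kb of gene body lay outside the canonical transcripts. The midpoint also lay in 2 other annotated loci of the plus strand, both annotated as TEC, a class of loci that awaits experimental proof, and 431224 and 376336 nt long. The list gave no strand, so the RNA behind the peak cannot be assigned to H2BC6.

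**Figure D2:**
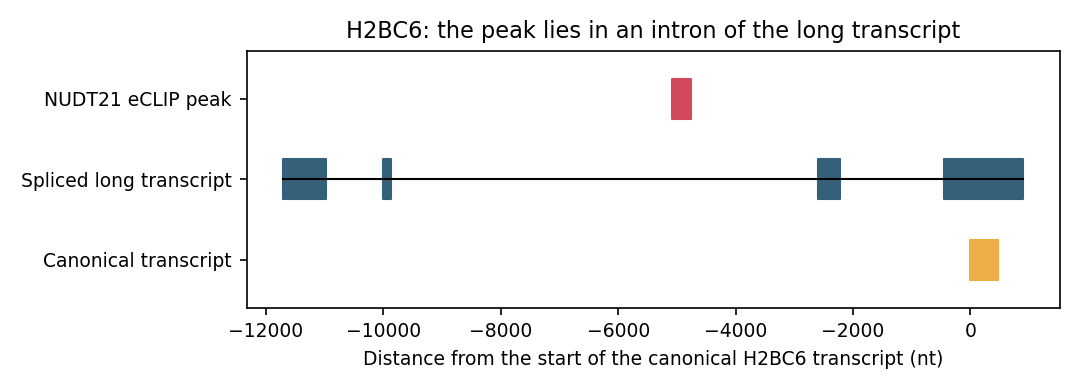
Map of H2BC6, with distance in nt from the start of the canonical transcript on the x axis and the peak (red), the spliced long transcript (blue, exons as boxes) and the canonical transcript (yellow) as rows. The peak ends 4767 nt upstream of the canonical transcript, between exons of the long one.

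The peak held 1 UGUA on the strand of the gene and 1 on the other. UGUA on the gene strand was found in 44.6% of the 17835 other peaks in protein-coding genes of a single strand, and in 70.4% (68.7 to 72.1) of the 2876 whose length was within 50 nt of this one, against 64.5% on the opposite strand of the latter, so a peak of this length with UGUA was common in the list. Of the 30-mers of the peak, 29.3% occurred at more than 1 place on the main chromosomes of hg38. For all peaks the median of this share was 0%, and it was 50% or more for 566 peaks (2.76%). In the H2BC6 peak, the most repeated 30-mer occurred at more places than there are histone genes in the group (69), so its copies were not few. Whether reads from other places contributed was not tested.

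All 69 genes were then examined over the canonical transcript and 500 nt downstream. This covers the stretch that yields the stem-loop mRNA, and in H2BC21 also the 1729 nt past its stem-loop. No gene held a peak there. A count of 0 of 69 allows a share of up to 4.35%. By the whole-body rule 1 of 69 genes held a peak (1.45%, 0.0367 to 7.81), against 34.1% of the 20033 protein-coding genes. Over the canonical transcript and 500 nt the background was 32.4%. The exons of the 69 canonical transcripts summed to 36.01 kb and held 0 peaks, which allows up to 0.0833 per kb, while exons of all other protein-coding genes held 0.141 per kb. Exons of other genes of 1 exon and at most 1000 nt held 1 peak in 286.8 kb, or 0.00349 per kb, which lies below that limit. Those of them with an annotated UTR held 0 in 101.2 kb. A lower density in histone exons than in these short genes was therefore not detectable.

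By family, 0 of 6 H1 genes, 0 of 17 H2A genes, 1 of 18 H2B genes, 0 of 13 H3 genes and 0 of 15 H4 genes held a peak. H1 proteins bind the linker DNA between nucleosomes, and H2A, H2B, H3 and H4 form the nucleosome core. With so few genes each, a count of 0 allows shares of up to 50% for H1, 17.6% for H2A, 23.1% for H3 and 20% for H4, so the families could not be told apart.

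Gene size moved with this result. Every histone canonical transcript had 1 exon, with a median length of 487 nt (386 to 2224). Among other protein-coding genes of 1 exon and at most 1000 nt, 4 of 390 held a peak, 1.03% (exact 95% interval 0.280 to 2.61), a share near that of the histone genes. Of these 390 genes 246 had no annotated UTR. With those left out, 1 of 144 held a peak (0.694%). Of other genes with 1 exon and over 2000 nt 14.8% held a peak, and of those with transcripts up to 1000 nt and any number of exons 12.4% did. The contrast with all genes was therefore not seen against short genes of 1 exon. How far these comparison genes are expressed in J-Gamma1 cells was not measured. The plot of shares sets the families beside these groups.

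**Figure D3:**
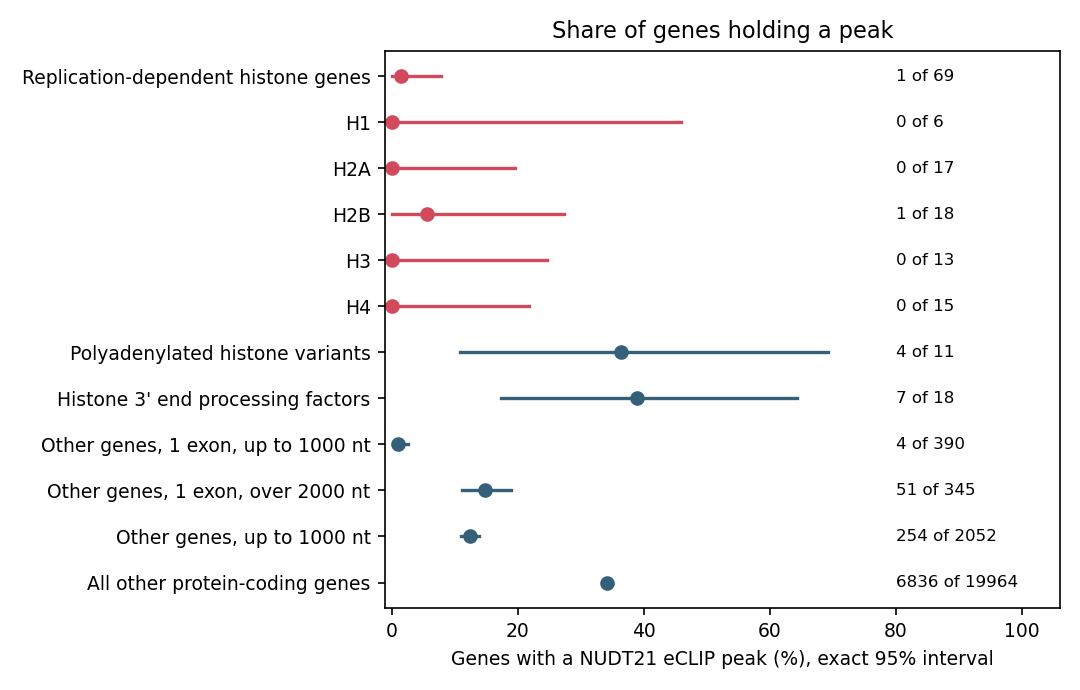
Share of genes with a NUDT21 eCLIP peak in the body or 500 nt downstream (%, x axis), with exact 95% intervals as lines and the counts at the right; histone genes and families are red, other groups blue. The histone genes (1 of 69) lie beside other short genes of 1 exon (4 of 390), and below all other protein-coding genes (6836 of 19964).

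Some histone genes are near-identical copies of each other, so the share of 30-mers of each canonical transcript that occurred elsewhere in hg38 was computed. The median was 10.4% (0 to 100%). H2AC18, H2AC19, H3C14, H3C15, H4C14 and H4C15, which lie as mirrored copies on chromosome 1, had 100%, so no 30-nt stretch of them has a single place in the genome. Longer stretches were nearly as shared, with 99.2% of the 50-mers of H3C14 and 99.8% of those of H2AC19 found in another histone gene. At the other end, 34 genes were under 10% and 10 of them were at 0%, among them H1-1, H1-3, H1-6, H3C1, H4C3 and H4C6. None of the 34 genes held a peak, nor did any of the 13 genes at 50% or more. The H1 genes were all unique or nearly so, from 0% to 1.82%, and had no peak in 4.57 kb of transcript. Among other protein-coding genes 36.0% of those under 10% and 10.03% of those at 50% or more held a peak, and among those with transcripts of at most 1000 nt the shares were 12.9% and 6.93%. Within histone genes alone, 34 of 69 shared no 50-mer with another member. The count of 0 of 34 allows a share of up to 8.82%, and that of 0 of 10 allows 30%, both above the 1.03% of other short 1-exon genes. How the authors treated reads with several matches is not given in the sources used here, and how many reads were lost was not tested.

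The gap from a canonical transcript to the nearest peak had a median of 91830 nt (4767 to 223314). It was 20865 nt for other protein-coding genes and 274682 nt for other short genes of 1 exon, so the histone genes lay between them. The peak of H2BC6 was within 5 kb of 1 gene and within 10 kb of a further one, H4C4, at 9716 nt. In all, 42 genes (60.9%) had a peak within 100 kb, against 72.8% of other protein-coding genes and 26.7% of short 1-exon genes. Neighbouring histone genes shared their nearest peak, so their median gap and this share rest on few peaks. The peak of H2BC6 was the nearest for every gene from H1-1 to H2BC10. Another single peak was the nearest for all 11 genes from H2BC18 to H2AC21. Grouped by gaps of at most 300 kb, the genes formed 6 runs that spanned 807 kb in all. The longest, from H2AC1 to H4C8 on chromosome 6, held 34 of the genes and the 1 peak in 562 kb, and the other 5 held none. This is 1.24 peaks per Mb over the runs, beside 6.98 per Mb over the main chromosomes. The former rate rests on 1 peak and has no interval, and the difference was not tested. The plot of gaps gives all 69 genes.

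**Figure D4:**
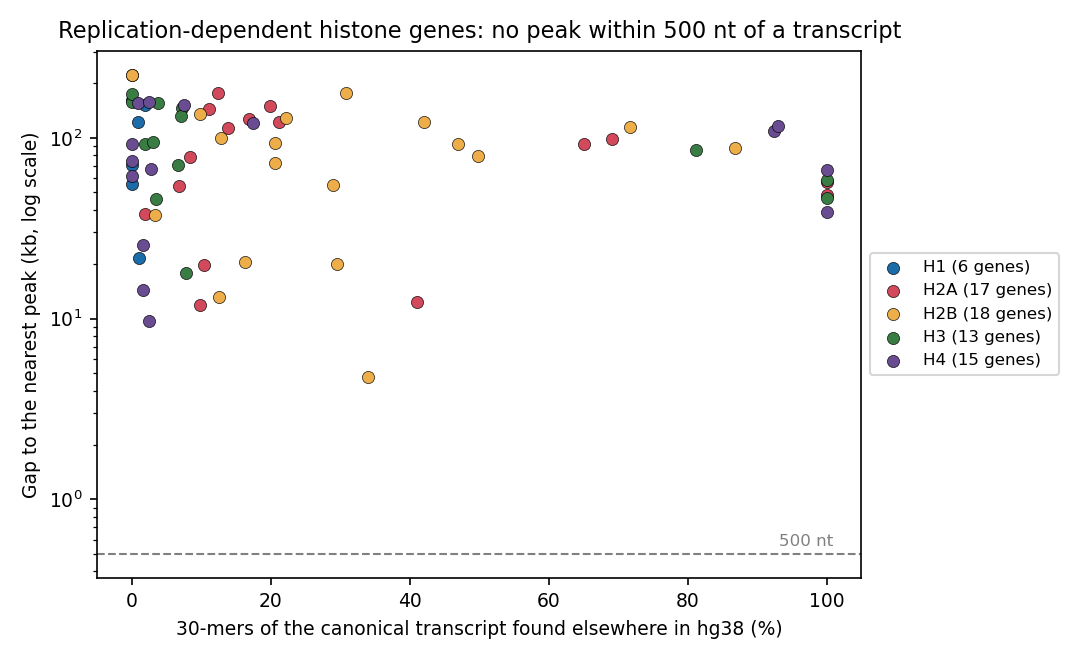
Each point is a histone gene, coloured by family, with the share of 30-mers of its canonical transcript found elsewhere in hg38 (%, x axis) and the gap to the nearest peak (kb, log scale, y axis). No point lies below the dashed line at 500 nt, whether its sequence is unique or shared; the lowest is H2BC6 at 4767 nt.

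Polyadenylated histone variant genes gave the comparison within histones. These variants are made outside S phase or placed at special chromatin, and 4 of the 11 genes on the list held a peak (36.4%, exact 95% interval 10.9 to 69.2), 11 peaks in all. Their share stood near the 34.1% of all protein-coding genes, while over the canonical transcript and 500 nt downstream it was 2 of 11 (18.2%, 2.28 to 51.8), against 32.4%. None of the 11 had the stem-loop letters in its last 150 nt, and 6 had AATAAA in the last 50 nt. H2AX, whose mRNA is known to end either way, had the letters further upstream and held no peak.

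Of the 11 variant genes 4 have a canonical transcript of 1 exon, as the histone genes do, and 1 of these held a peak. H2AX (1592 nt), H2AJ (620 nt) and H3-5 (1114 nt) held none. The 1 with a peak was H1-10, a linker histone gene. Its transcript of 1516 nt held 1 peak in the 5'UTR, at chr3:129316111-129316191, with a fold enrichment of 2.95 and 26 steps. The peak had an FDR of 1, no UGUA on the gene strand, and no 30-mer that occurred elsewhere. The transcripts of H1-1 to H1-6 were 724 to 797 nt long and held none, and H2AJ, with a transcript shorter than these, held none either, so that the kind of ending and the length cannot be told apart here.

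H2AZ2, one of the genes for H2A.Z, a variant found at promoters, held most peaks of the variant list, 7, with fold enrichments from 2.16 to 2.84 and 6 to 10 steps. All lay beyond the end of its canonical transcript, 6 of them in exons of other H2AZ2 transcripts, and 5 held UGUA. A site in the exonic peak at chr7:44827287-44827429 (fold enrichment 2.46, 9 steps) is given with UGUA in capitals, as an example of the motif in a polyadenylated histone gene.
H2AZ2 (chr7:44827314-44827343, minus): gatgctgatagtcTGTAgagtcaggaatac
MACROH2A1, a variant with a large macro domain, had 1 peak in coding sequence (chr5:135369456-135369536, fold enrichment 2.83, 11 steps) and 1 in an intron (1.43, 2 steps). CENPA, the centromeric H3, had 1 outside annotated exons (chr2:26778770-26778849, 2.37, 8 steps) with 2 UGUA. The other 7 genes held none: H2AZ1, H2AX, H2AJ, MACROH2A2, H3-3A, H3-3B and H3-5. H3-3A, H3-3B and H2AZ1 encode replacement histones that most cells make, and 95.7%, 25.3% and 43.7% of the 30-mers of their transcripts occurred elsewhere. Over the list these shares ran from 0% to 24.6% in the 4 genes with a peak and from 0% to 95.7% in the 7 without, and their part in the result was not tested.

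Genes linked to histone 3' end formation and to other steps, such as histone mRNA decay, were examined as a list of 18. Of these, 7 held a peak (38.9%, 17.3 to 64.3), beside 34.1% of all genes. SLBP, which binds the stem-loop, held 2, both in coding sequence, at chr4:1703578-1703636 (fold enrichment 3.66, 14 steps, FDR 1) and 1711852 to 1711899 (2.19, 8 steps). The former had the highest fold enrichment among the peaks of these 18 genes. CPSF2, a subunit of the cleavage complex shared with polyadenylated mRNAs, held 2 in coding sequence (2.79 and 2.86, 9 steps each). CSTF2, also in that complex, held 1 in coding sequence (2.03, 5 steps) and 1 that spans the end of its canonical transcript, with its midpoint past it (1.39, 2 steps). COIL, the scaffold of Cajal bodies, held 2 (2.26 and 1.95), and UPF1, which takes part in histone mRNA decay, held 2 (2.10 and 2.14). Of the 30-mers of the COIL peak at 2.26, 39.9% occurred elsewhere. ZNF473, a U7 particle partner, had 1 intron peak of 1 step, with 13.8% of its 30-mers found elsewhere. SNRPF, a ring protein of the particle, had 2 of 2 steps each, both beyond the end of its canonical transcript. The 11 genes with none were LSM10, LSM11, CASP8AP2, NPAT, CPSF3, SYMPK, SNRPB, SNRPD3, SNRPE, SNRPG and ERI1.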

How the data were processed

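The authors trimmed the reads of 1 replicate with fastp, deduplicated them by molecular identifier, removed ribosomal RNA, mapped to hg38 and called peaks with MACS2 (background windows of 1000 and 10000 nt). The paper states a q-value setting of 0.05 for the peak calls, whereas 19 of the 20499 deposited peaks had an FDR under 0.05. The reason for this difference was not tested. The aligner and the use of the input as control are not given in the sources used here. Per the file headers, the deposited values are fold enrichment (a ratio), p-value, FDR and a Score whose unit is not stated. Peaks carry no strand, so the gene gave it.

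Coordinates count from 1 and the reference was hg38 with GENCODE 44. Genes were protein-coding on chromosomes 1 to 22, X and Y. Members went by midpoint. Shares have exact Clopper-Pearson 95% intervals, and 3 counts were taken as what a count of 0 allows. The 30-mers of canonical exons and peaks were counted on both strands. The assignment and the counting were tested on simulated data.

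Named were every histone gene with a peak, its values in full, and each gene with a peak on the other lists. Members and lists were chosen with earlier results of these data known. A further gene of the variant list was left out of all its counts and is not reported here. The comparisons by transcript length, by 30-mers of genes and by runs of genes were chosen after the member count was seen. Counting used numba 0.67.0, tables pandas 2.3.3 with numpy 2.4.6, intervals scipy 1.17.1 and plots matplotlib 3.10.9, all under Python 3.11.15.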

Additional observations from a re-analysis of the deposited data

How the results depend on the processing

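Alternatives were an FDR under 0.05, fold enrichment of at least 2, 5 or more steps, merging within 100 nt, any overlap, no downstream extension, 1000 nt downstream and the canonical span. The count of 0 peaks in the canonical transcript and its downstream window stayed 0 with any overlap, merging or 1000 nt downstream. The nearest peak lay 4767 nt from a canonical transcript, so none of these settings could have raised the count, and they are no check of it. The count of 1 member peak, and of 1 histone gene with a peak, became 0 with an FDR under 0.05, a fold enrichment of at least 2, 5 or more steps or the canonical span, and stayed 1 under the other 4. Where no peak was left, no fold enrichment and no UGUA count could be given. UGUA was present in the member peak also in its central 50 nt and with 50 nt added on both sides. The 4 variant genes with a peak became 0 at an FDR under 0.05, which only 19 peaks of the list met, and 2 with the canonical span, since the peaks of H2AZ2 and CENPA lay outside it; under the other 6 alternatives the count was 4. The processing list had 5 genes at 5 or more steps, against 7, and none of its 13 peaks had an FDR under 0.05. With 50-mers compared within the histone genes, the share of the member peak that occurred elsewhere was 0%, against 29.3% with 30-mers over the genome. This alternative changed both the length of the stretches and the sequence searched, so its 0% says nothing about copies elsewhere in the genome. No paired analysis was possible because the series had 1 library in each group and only the antibody library had a peak list here.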
